A study of Homo sapiens with 12 samples.

Results

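The genes described here are 10 antiviral restriction factors, MX1, MX2, RSAD2, CMPK2, TRIM22, BST2, SAMD9, SAMD9L, IFITM1 and IFITM3, out of 19775 genes measured. They were chosen by name, with earlier results of these data known. Every probe set that the platform annotation gives to 1 of these genes alone was kept, which gave 14 probe sets of 54675 on the array. A probe set is a group of probes read together as 1 value for a transcript. RSAD2 and SAMD9 have 2 probe sets each, SAMD9L has 3 and the other genes have 1. A further 1 probe set, annotated to IFITM1 and to another gene as well, was left out.

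Transcripts were measured in 2 established lines, L428 and L1236. Both derive from classical Hodgkin lymphoma, whose tumour cells descend from B cells but have lost most B-cell gene expression. The 12 arrays form 4 groups of 3: untreated L428, L428 after 5-Aza-dC, untreated L1236 and L1236 after 5-Aza-dC. 5-Aza-dC, also called decitabine, is incorporated into DNA in place of deoxycytidine and traps DNA methyltransferases, so that dividing cells lose methylation. Treated cells received 1 µM for 24 h, were washed and were then kept for 72 h without drug. The labels name no vehicle in the untreated groups, and each line stands for 1 tumour. The labels speak of triplicates without saying whether each was a culture of its own. The p-values then measure only the spread between these samples, which may be technical. In RNA from a whole culture, fewer expressing cells and less RNA per cell cannot be told apart.

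Interferons are secreted proteins that tell cells of a viral infection. Their receptors signal through JAK kinases and STAT proteins to transcription factors that bind the interferon-stimulated response element (ISRE) in the promoters of many genes. The products of these genes act directly on viruses: they block entry, uncoating, copying of the genome or release of new particles. Cells whose DNA has lost methylation can transcribe endogenous retroviral repeats, whose RNA is sensed like that of a virus.

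Every one of the 10 genes was higher in L428 after the drug, by 1.52 to 9.25 on the log2 scale, where 1 unit is a doubling. In L1236, 4 of them rose, CMPK2, TRIM22, IFITM3 and MX1, by 2.92 to 5.10. The other 6 did not pass the test there, with estimates of 0.34 to 2.68. Of all 19775 genes, at 1 probe set each, 2.84% were higher by the same test in L428 and 7.41% in L1236. The counts of members that passed changed with the arrays and groups used in the fit, as described further down. Treated L428 had the highest mean of the 4 groups in all 14 probe sets. IFITM3 was the one gene whose estimated change was not smaller in L1236 than in L428.

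RefSeq promoter windows of build GRCh38.p14, running from 250 bases before to 50 bases after a transcription start, were found for 8 of the 10 genes, 13 windows in all. The ISRE core, written as GAAA, any 2 bases, GAAA and searched on both strands, occurred in a window of 6 of these 8 genes, against 4.38% of the 27305 genes in the RefSeq table. SAMD9L and CMPK2 had no match in their windows. These stretches are shown because they are the element through which interferon signalling is known to act on such genes. The matches are in capitals, each stretch is written 5′ to 3′ on the strand of the gene, and a match is a description of the letters and not evidence of a working site. The gamma-activated site core, TTC, any 3 bases, GAA, was found in 3 of the 13 windows, against 7.66% of the 35116 windows of the table.
MX1, chr21:41420559-41420588 (+): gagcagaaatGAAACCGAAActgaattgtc
RSAD2, chr2:6877617-6877656 (+): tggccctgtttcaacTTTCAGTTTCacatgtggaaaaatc
BST2, chr19:17405730-17405775 (-): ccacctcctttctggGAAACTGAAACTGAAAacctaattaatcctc
SAMD9, chr7:93118091-93118130 (-): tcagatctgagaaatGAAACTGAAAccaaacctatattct
IFITM1, chr11:313990-314053 (+): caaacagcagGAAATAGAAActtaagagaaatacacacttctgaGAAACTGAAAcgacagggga
IFITM3, chr11:320871-320927 (-): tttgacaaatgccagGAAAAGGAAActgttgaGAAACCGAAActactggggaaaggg
The RSAD2 match lies on the opposite strand, and BST2 holds 2 overlapping matches, which read as 1 run. The MX1 match shown starts 11 bases after the annotated start of its window. Another MX1 window holds a match on the opposite strand at position -196 from its own start, which is not shown. The second IFITM1 match spans the start, and the other matches shown lie before it.

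CpG dinucleotides, the sites that DNA methyltransferases methylate, were unevenly spread over the same windows. SAMD9L had 0, BST2 2, IFITM1 3, SAMD9 4, the RSAD2 window with the ISRE match 4 and IFITM3 8, where the median of all windows was 14. The 3 MX1 windows had 20, 30 and 6, the first being the one whose match is shown and the last the one with the match at -196. The 3 CMPK2 windows had 41, 38 and 2. The one with the most had more CpGs than 93.3% of all windows, with an observed-to-expected CpG ratio of 0.98. It shares 165 bases with a second RSAD2 window, which had 45 CpGs, since the 2 genes start close together and point away from each other. The 250 bases before this CMPK2 start are shown with each CpG in capitals, as a CpG-rich stretch in which an RSAD2 transcript also starts.
CMPK2, chr2:6865820-6866069 (-): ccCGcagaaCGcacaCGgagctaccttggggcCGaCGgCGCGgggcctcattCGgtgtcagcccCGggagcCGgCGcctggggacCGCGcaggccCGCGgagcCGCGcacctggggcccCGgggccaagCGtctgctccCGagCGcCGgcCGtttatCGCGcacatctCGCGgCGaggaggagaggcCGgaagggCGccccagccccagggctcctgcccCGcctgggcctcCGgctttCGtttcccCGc
Methylation itself was not measured on these arrays.

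Levels below are log2 signals, given for replicates 1, 2 and 3 in that order, and levels of different genes are not compared because each probe set binds with its own strength. Changes are log2 differences between group means ± SE from limma, with p-values adjusted over all 54613 probe sets tested, and a change was called at an adjusted p under 0.05. The scale has a floor at about 2 to 3, and the size of a fold change that starts there is uncertain. The source name of untreated L1236 replicate 1 speaks of treated L428, against its description. Its values correlated best with untreated L1236 replicate 3, and it was kept in its described group. Treated replicate 1 of both lines lay closer to the untreated level than the other treated arrays, as described further down.

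MX1 and MX2 encode dynamin-like GTPases. MX1 (MxA) is cytoplasmic and blocks influenza and many other viruses, and MX2 (MxB) acts at the nuclear envelope against HIV and herpesviruses. MX1 stood at 8.36, 9.10 and 9.25 in untreated L428 and at 12.62, 14.32 and 14.13 after the drug. The L1236 arrays gave 7.72, 7.38 and 7.39 untreated and 9.42, 10.86 and 10.96 treated. In both lines the 3 treated arrays were above the 3 untreated ones. MX1 rose by 4.79 ± 0.53 in L428 (adjusted p = 0.00226) and by 2.92 ± 0.53 in L1236 (0.0112), and the latter missed the threshold without treated L1236 replicate 2 (2.69, adjusted p = 0.0507).

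MX2, beside MX1 on chromosome 21, followed the cell line more than the drug. It stood at 10.44, 10.27 and 10.53 in untreated L428 and at 11.65, 13.05 and 12.83 in treated L428, a rise of 2.10 ± 0.36 (adjusted p = 0.018). In L1236 the levels were 6.95, 6.78 and 6.54 untreated and 6.70, 7.59 and 7.39 treated. These 2 groups overlapped, and their difference of 0.47 had a 95% interval from -0.35 to 1.28. Untreated L1236 lay 3.65 ± 0.36 below untreated L428 (adjusted p = 8.87e-05), a 12.6-fold lower level, and even the highest treated L1236 array was below every untreated L428 array. The call in L428 was lost without treated replicate 2 or 3 or untreated replicate 2 or 3 of L428, at adjusted p-values of 0.0666, 0.081, 0.0629 and 0.0502.

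RSAD2 and CMPK2 are neighbours that start close together on chromosome 2. RSAD2 encodes viperin, a radical SAM enzyme that turns CTP into a chain-terminating nucleotide, and CMPK2 encodes a mitochondrial kinase of UMP, CMP and their deoxy forms. RSAD2 (probe set 242625_at) stood at 3.36, 3.13 and 2.95 in untreated L428, near the floor, and at 9.11, 12.68 and 12.27 in treated L428. The second RSAD2 probe set, 213797_at, went from 2.30, 2.31 and 2.27 to 8.58, 11.99 and 11.70. Both were called, at 8.21 ± 1.15 (adjusted p = 0.00699) and 8.46 ± 1.35 (0.0135), and the latter was lost without treated L428 replicate 2 (0.061) or 3 (0.0645). With values below 4 set to 4, the changes were 7.36 (adjusted p = 0.0263) and 6.75, and the call of 213797_at was lost (0.053).

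In L1236, RSAD2 split the treated arrays. Probe set 242625_at read 4.76, 4.41 and 4.86 untreated and 4.83, 8.55 and 8.69 treated, and 213797_at read 5.89, 5.08 and 3.64 untreated and 3.50, 8.15 and 8.18 treated. Treated replicates 2 and 3 were thus far above every untreated array in both probe sets, and treated replicate 1 was not. The differences of 2.68 ± 1.15 and 1.74 ± 1.35 did not pass the test (adjusted p = 0.196 and 0.397). Without treated L1236 replicate 1, that of 242625_at was 3.94 (adjusted p = 0.0243) and that of 213797_at 3.29 (0.0659).

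CMPK2 stood at 3.50, 3.79 and 3.92 in untreated L428 and at 11.26, 12.46 and 12.21 in treated L428. Untreated L1236 gave 2.85, 2.84 and 2.85, at the floor, and treated L1236 6.14, 8.85 and 8.84. It rose by 8.24 ± 0.66 in L428 (adjusted p = 4.36e-04) and by 5.10 ± 0.66 in L1236 (0.00219). With values below 4 set to 4, these changes were 7.97 and 3.94. CMPK2 and RSAD2 thus differed in L1236 on the same array: on treated replicate 1 CMPK2 was far above all untreated arrays, and both RSAD2 probe sets were not above them.

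TRIM22 encodes a RING-finger ubiquitin ligase of the tripartite motif family that restricts HIV transcription and acts on influenza and hepatitis viruses. It stood at 3.51, 3.39 and 2.48 in untreated L428 and at 10.73, 13.32 and 13.07 in treated L428. In L1236 it stood at 4.06, 4.25 and 3.96 untreated and at 7.19, 9.12 and 9.08 treated. The groups were apart in both lines. TRIM22 rose by 9.25 ± 0.74 in L428 (adjusted p = 4.17e-04) and by 4.38 ± 0.74 in L1236 (0.00777). With values below 4 set to 4, the changes were 8.37 and 4.36.

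IFITM1, IFITM3 and BST2 encode membrane proteins. The IFITM proteins stop viruses from fusing with cell membranes, IFITM1 mostly at the surface and IFITM3 in endosomes, and BST2 (tetherin) holds budding virions on the cell. IFITM1 stood at 11.34, 10.61 and 10.74 in untreated L428 and at 13.15, 14.02 and 13.62 in treated L428, a rise of 2.70 ± 0.24 (adjusted p = 6.88e-04). The L1236 arrays gave 12.39, 12.10 and 12.16 untreated and 12.85, 12.97 and 12.89 treated. All treated L1236 arrays were above all untreated ones, but the difference of 0.69 ± 0.24 did not pass the test over all probe sets (adjusted p = 0.118). IFITM1 was also the only probe set of the 14 called higher in untreated L1236 than in untreated L428, by 1.32 ± 0.24 (adjusted p = 0.00332).

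IFITM3 stood at 10.02, 9.39 and 9.82 in untreated L428 and at 11.39, 13.15 and 13.10 in treated L428. In L1236 it stood at 8.83, 8.59 and 8.26 untreated and at 11.67, 11.85 and 11.78 treated. Its treated L1236 arrays had an SD of 0.09, where those of MX1, TRIM22 and CMPK2 had 0.86, 1.10 and 1.57. Those of IFITM1 and SAMD9 (228531_at), which were not called in L1236, had 0.06 and 0.10. IFITM3 rose by 2.80 ± 0.43 in L428 (adjusted p = 0.0103) and by 3.21 ± 0.43 in L1236 (0.00243). Its probe set carries the suffix of sets that share probes with other transcripts, and the IFITM genes are very similar in sequence, so its signal may hold that of IFITM2. Probe sequences were not examined for IFITM1 (214022_s_at) either, and its signal may likewise hold that of its family.

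BST2 had the smallest change of the 10 genes in L428. It stood at 10.52, 10.56 and 10.83 untreated and at 11.91, 12.22 and 12.35 treated, a rise of 1.52 ± 0.19 (adjusted p = 0.00381) with no overlap. In L1236 the levels were 10.60, 11.11 and 11.08 untreated and 10.97, 11.47 and 11.36 treated. Those groups overlapped, and the difference of 0.34 had a 95% interval from -0.09 to 0.76.

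SAMD9 and SAMD9L, neighbours on chromosome 7, encode large cytoplasmic proteins that stop poxviruses and restrain translation and growth. SAMD9 (228531_at) stood at 7.92, 7.52 and 7.11 in untreated L428 and at 9.86, 11.91 and 11.80 in treated L428. In L1236 it stood at 8.32, 7.49 and 7.64 untreated and at 8.61, 8.62 and 8.44 treated. It rose by 3.68 ± 0.51 in L428 (adjusted p = 0.00657), and the L1236 difference of 0.74 ± 0.51 was not called (0.348). The second SAMD9 probe set gave 3.77 in L428 (adjusted p = 0.00862) and 0.72 in L1236 (0.389).

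SAMD9L (226603_at) stood at 8.80, 9.01 and 8.92 in untreated L428 and at 11.38, 12.92 and 12.81 in treated L428. In L1236 it stood at 9.63, 8.98 and 8.89 untreated and at 10.06, 10.94 and 10.97 treated, with every treated array above every untreated one. The 3 SAMD9L probe sets rose by 3.46, 4.41 and 3.68 in L428 (adjusted p = 0.00362, 0.0013 and 0.00309). Their L1236 differences of 1.49, 0.97 and 0.77 were not called (adjusted p = 0.0645, 0.213 and 0.285). That of 226603_at passed without treated L1236 replicate 1 (1.79, adjusted p = 0.0307) or without treated L428 replicate 1 (0.0126). In the latter case the value itself stayed and only the pooled spread changed.

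**Figure D1:**
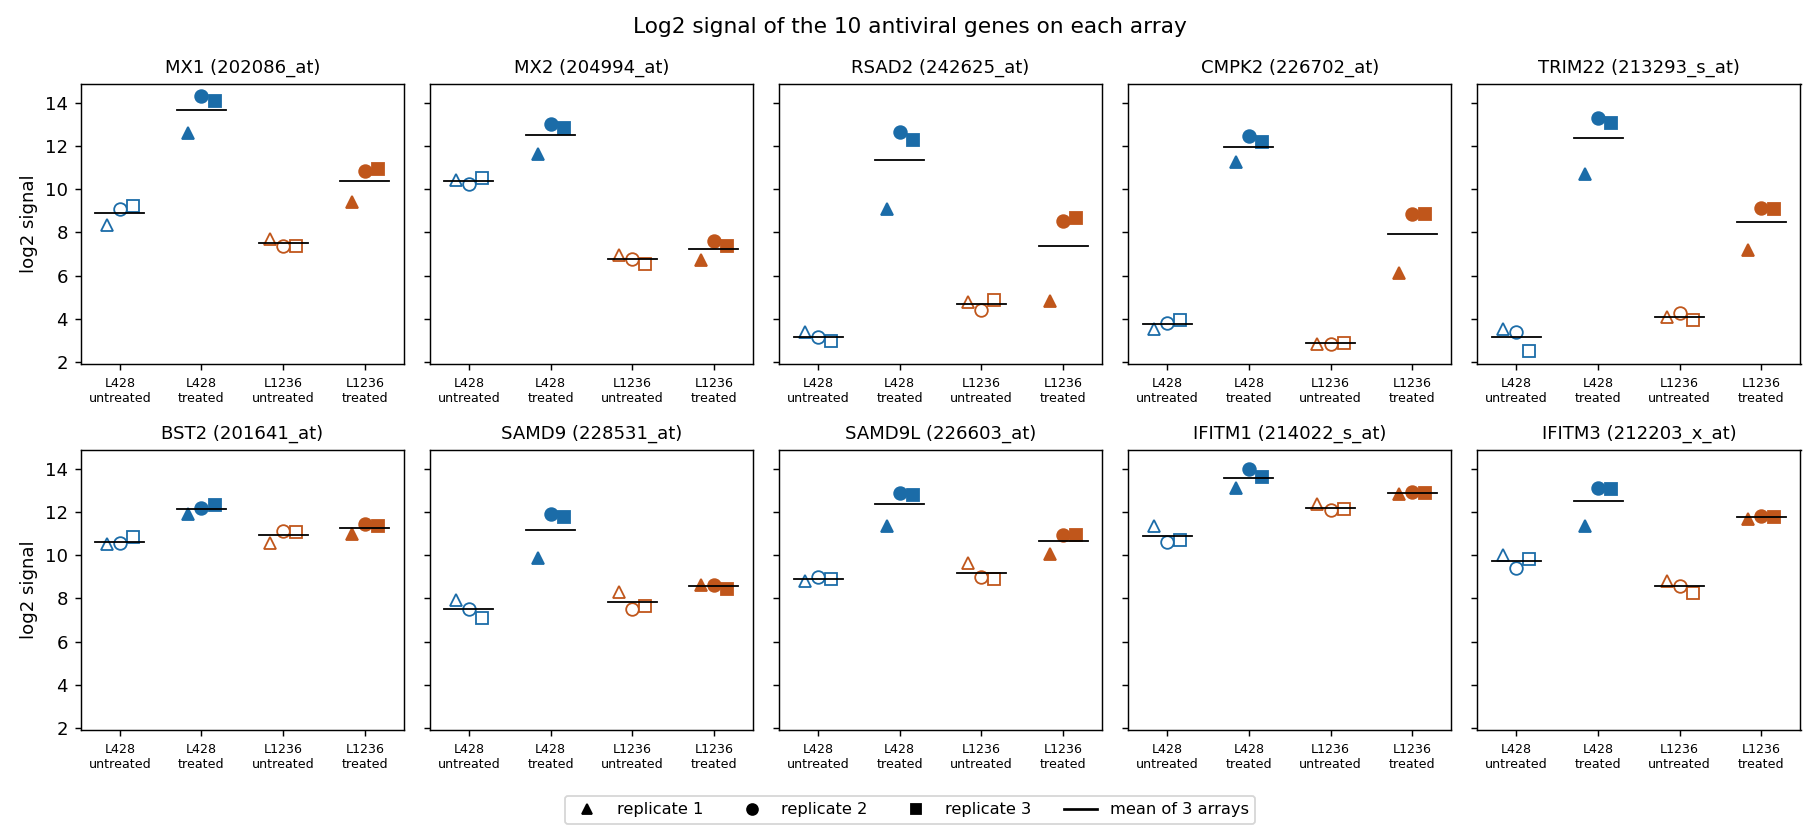
Log2 signal (vertical axes) of the 10 antiviral genes in the 4 groups (horizontal axes), 1 point per array and 1 probe set per gene; open symbols are untreated, filled symbols treated, the shape gives the replicate and the line the mean of 3 arrays. Treated L428 has the highest mean in every panel, with single arrays overlapping treated L1236 for IFITM3. MX2 is low in both L1236 groups, and treated replicate 1 (triangles) lies below the other treated arrays in L428.

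Over the 14 probe sets, all were called higher in L428, where 1.82% of the 54613 probe sets were called higher. The median change of the 14 was 3.73, and that of all probe sets -0.02. All 14 had their 3 treated arrays above their 3 untreated arrays, a separation seen in 6.41% of all probe sets. Since the genes were chosen with earlier results of these data known, these shares describe the set and are no test of it. The genes differed widely in size of change, with TRIM22, CMPK2 and RSAD2 above 8, MX1, SAMD9 and SAMD9L between 3.46 and 4.79, and IFITM3, IFITM1, MX2 and BST2 under 3. The deviations of same-numbered L428 arrays had r of 0.154 to 0.26 across probe sets, which are not independent. Differently numbered arrays were not compared. With replicate number as a block all 14 stayed called. With a separate block within each line 9 did, MX2, both SAMD9 sets, IFITM3 and RSAD2 213797_at having adjusted p-values of 0.0755, 0.0588, 0.064, 0.0705 and 0.0758. In a fit of the L428 arrays alone 3 did (CMPK2, TRIM22 and BST2). The share of all probe sets called higher moved as well, to 1.87%, 1.25% and 0.304% in these settings, in the same order.

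In L1236, 4 of the 14 probe sets were called higher, 1 each for CMPK2, TRIM22, IFITM3 and MX1, where 4.58% of all probe sets were called higher. The median change of the 14 was 1.23, and that of all probe sets -0.03. In 8 of the 14 the treated arrays all lay above the untreated ones, against 10.3% of all probe sets, and 6 overlapped. The treated arrays all lay below the untreated ones in 0 of the 14 and in 48% of all probe sets. In L428 that share of all probe sets was 9.81%. Without all arrays numbered 1, 13 of the 14 were called, BST2 being the exception, with RSAD2 at 3.98 and 3.80, SAMD9L at 2.02, MX2 at 0.83 and IFITM1 at 0.80. In that setting 10.7% of all probe sets were called higher, against 4.58%. The count of 4 thus depended on those arrays, as did the share of all probe sets.

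**Figure D2:**
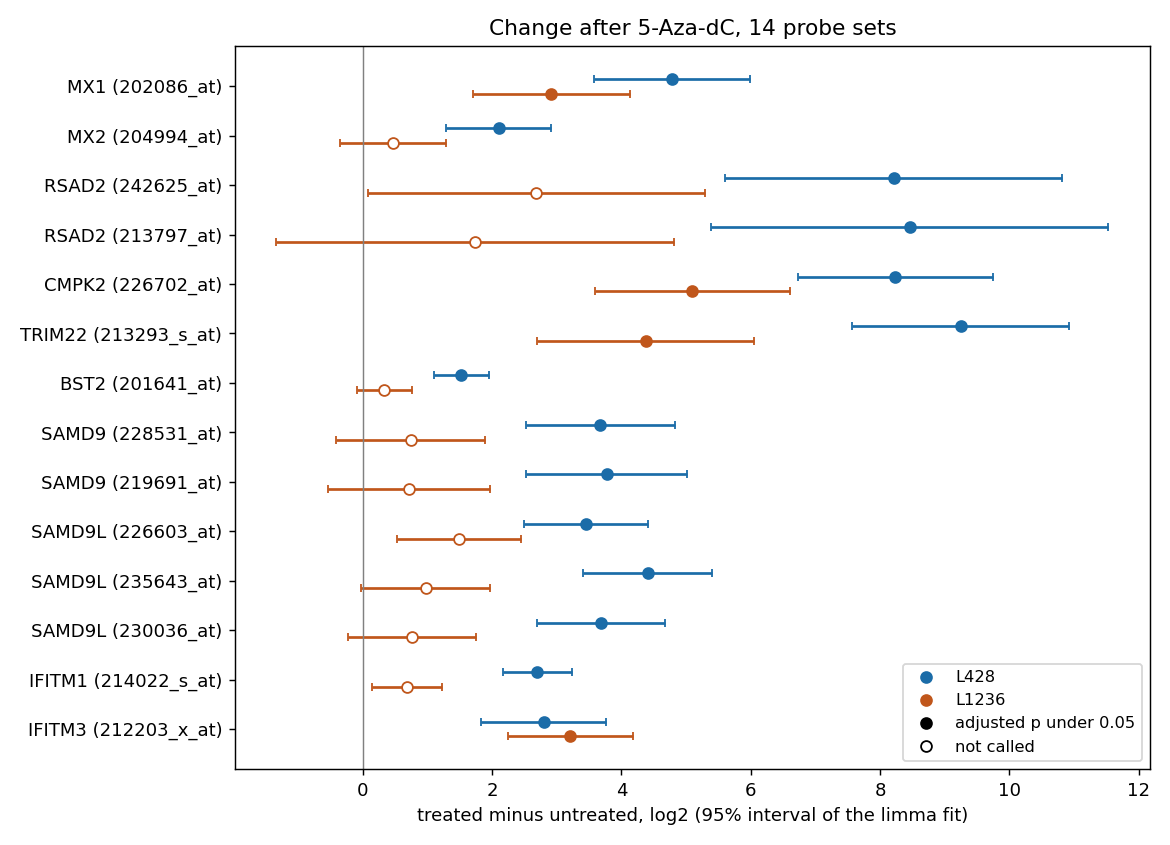
Treated minus untreated log2 signal (horizontal axis) of the 14 probe sets in L428 (blue) and L1236 (orange), with 95% intervals from the limma fit; filled points were called. All 14 points are filled in L428 and 4 in L1236, and IFITM3 is the one row where the L1236 point lies to the right.

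The change in L1236 was smaller than that in L428 in 13 of the 14 probe sets. The median difference, L1236 minus L428, was -2.92 over the 14 and -0.009 over all probe sets. The difference between the changes was called for 4, where 1.15% of all probe sets were called lower. TRIM22 rose by 4.87 ± 1.04 less in L1236 (adjusted p = 0.049), SAMD9L 235643_at by 3.44 ± 0.62 less (0.0256), SAMD9L 230036_at by 2.91 ± 0.62 less (0.0472) and IFITM1 by 2.01 ± 0.33 less (0.0183). The largest estimated differences, -5.53 and -6.72 for the RSAD2 probe sets, were not called (adjusted p = 0.144 and 0.131), and their arrays were the most spread. For IFITM3 the difference was 0.41 with a 95% interval from -0.96 to 1.78. The count of 4 was not stable: leaving out 1 array gave 0 (untreated or treated L428 replicate 3) to 11 (treated L428 replicate 1), and leaving out all arrays numbered 1 gave 13. The share of all probe sets called in either direction moved as well, from 2.57% to 5.60% without treated L428 replicate 1 and to 14.3% without all arrays numbered 1. With replicate number as a block, where 2.09% of all probe sets were called, none of the 4 was called (adjusted p from 0.0511 to 0.0868) and BST2 was (-1.19, adjusted p = 0.00917).

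Before treatment the lines differed in 2 of the 14 probe sets, MX2 being lower and IFITM1 higher in L1236, where 21.1% of all probe sets were called in either direction. RSAD2, TRIM22, SAMD9, SAMD9L and BST2 had higher means in untreated L1236, by 0.25 to 2.57, and MX1, CMPK2 and IFITM3 lower ones, none of which passed the test. After treatment 11 of the 14 were called lower in L1236 than in L428, where 9.90% of all probe sets were. MX2 differed most, by -5.29 ± 0.36 (adjusted p = 9.15e-06), and CMPK2, TRIM22 and MX1 differed by -4.03, -3.91 and -3.28. All 3 treated L1236 arrays were below all 3 treated L428 arrays in 13 of the 14, against 21.9% of all probe sets, and IFITM3 overlapped. The call for RSAD2 242625_at (adjusted p = 0.0366) was lost in 9 of the 12 fits that left out 1 array, with adjusted p-values up to 0.125, and that for SAMD9L 226603_at (0.0179) in 3, without treated L1236 replicate 1 (0.0556) or treated L428 replicate 2 (0.0669) or 3 (0.0695).

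The order of the 4 group levels took 3 forms. RSAD2, TRIM22, BST2, SAMD9, SAMD9L and IFITM1 ran from treated L428 through treated L1236 and untreated L1236 to untreated L428. MX1, CMPK2 and IFITM3 had untreated L1236 last. MX2 alone had untreated L428 in the second place, above treated L1236. Neighbouring groups in that order were apart on every array for MX1, CMPK2, TRIM22 and IFITM1. For RSAD2 the 2 L1236 groups overlapped, for SAMD9 and SAMD9L (228531_at and 226603_at) the 2 untreated groups, for MX2 again the L1236 groups, for IFITM3 the 2 treated groups, and for BST2 every pair but the first.

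Treated replicate 1 of each line differed from the other treated arrays over most of the 14 probe sets. It was the lowest treated array in 14 of 14 in L428 and in 12 of 14 in L1236. Its median height above the untreated mean was 2.41 in L428, against 4.20 and 4.09 in treated replicates 2 and 3, and 0.84 in L1236, against 2.53 and 2.51. The mean of the 10 genes was 11.31, 13.00 and 12.82 on the treated L428 arrays and 8.84, 10.08 and 10.04 on the treated L1236 arrays, against 7.65 to 7.78 and 7.36 to 7.61 untreated. Over all probe sets, the array most like treated replicate 1 was untreated replicate 3 in L428 (r = 0.987) and treated replicate 2 in L1236 (r = 0.987), as correlations across probe sets, which are not independent. No source used here states a dose, time or batch of its own for these arrays, and what set them apart was not tested.

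**Figure D3:**
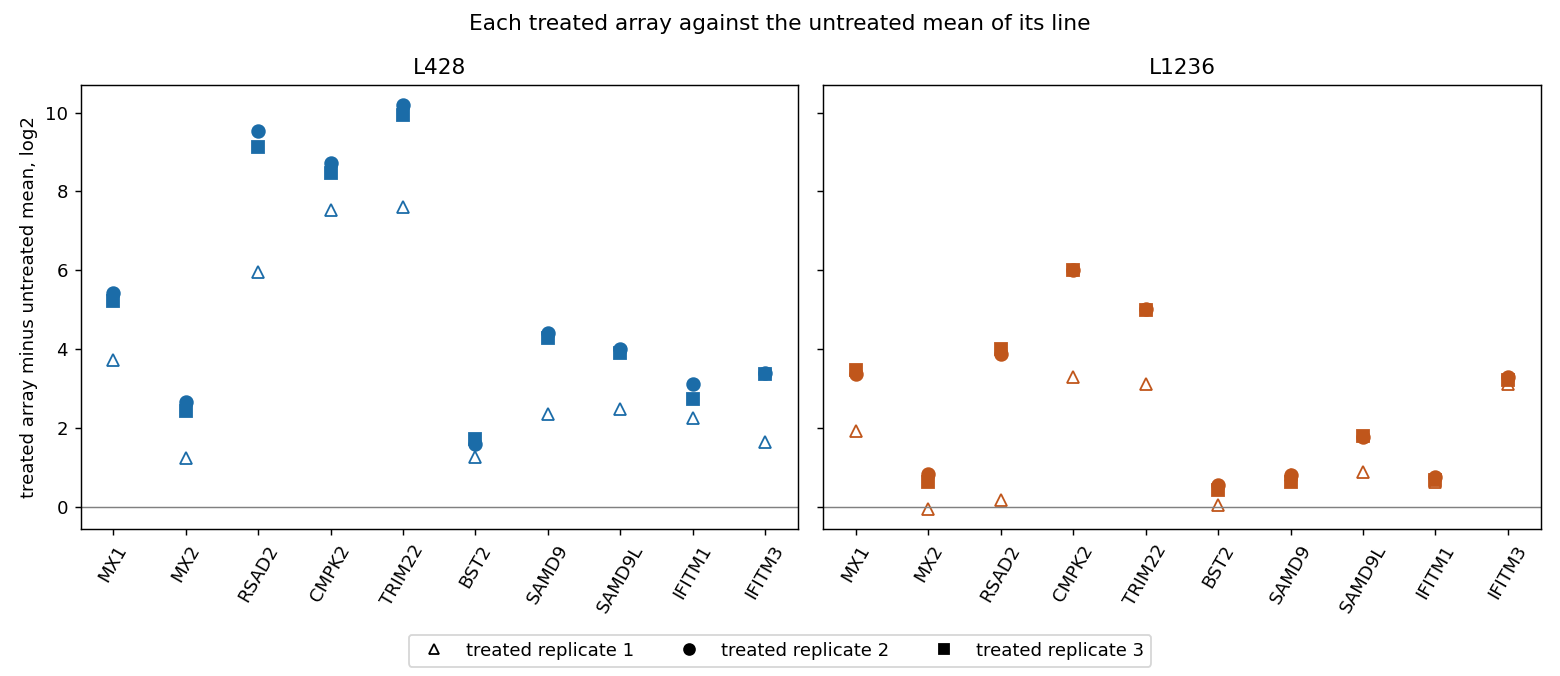
Height of each treated array above the untreated mean of its line, in log2 (vertical axes), for 1 probe set of each of the 10 genes (horizontal axes); open triangles are treated replicate 1. Replicates 2 and 3 nearly coincide in both lines, and replicate 1 is lower in L428 for every gene and in L1236 near 0 for MX2, RSAD2 and BST2.

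Genes that act upstream of these factors rose in L428 too. These and the following lists use 1 probe set per gene, and 2.84% of all genes were called higher in L428 and 7.41% in L1236 on that basis. Other probe sets of the same gene did not always give the same call. The antiviral effector SLFN5 counts as not called in either line, although 4 of its 6 probe sets were called in each. The lists, too, were chosen with earlier results of these data known. Of 19 measured genes of interferon signalling, 7 rose in L428 and 5 in L1236. IFNL2, a type III interferon, went from 2.25 to 8.42 in L428, a rise of 6.18 ± 0.31 (adjusted p = 3.6e-05), and stayed at 2.23 and 2.21 in L1236. The difference between its responses was called (adjusted p = 1.79e-04). IFNB1, the type I interferon of most cells, went from 2.46 to 7.36 in L428 (adjusted p = 0.0174) and from 2.45 to 3.66 in L1236, which was not called (0.348). IFNB1 was chosen for naming after its values were seen.

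Of the transcription factors, IRF7, which amplifies interferon production, rose by 4.76 ± 0.50 in L428 (adjusted p = 0.00164) and by 2.75 ± 0.50 in L1236 (0.0106). IRF1 rose by 1.51 ± 0.32 (adjusted p = 0.0401) and 2.38 ± 0.32 (0.00236). The type III receptor chain IFNLR1 rose by 2.77 ± 0.33 in L1236 (adjusted p = 0.00136), and its L428 difference of 1.08 was not called (0.137). Of the 2 IFNLR1 probe sets, 1 was called in L1236. Among sensors of viral nucleic acid, 6 of 12 rose in L428 and 4 in L1236. RIGI, which detects viral RNA, went from 5.61 to 11.78 in L428 (adjusted p = 0.00152) and from 7.06 to 9.55 in L1236 (0.0427). The DNA sensor IFI16 rose by 1.97 and 0.93 (adjusted p = 0.00262 and 0.0369), and ZBP1, a sensor of left-handed nucleic acid, by 3.33 in L428 (0.0018), with 2.39 and 2.35 in L1236.

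Of 7 feedback inhibitors, 2 rose in L428 and 1 in L1236. USP18, which detaches ISG15 and blocks the interferon receptor, rose by 3.61 ± 0.30 in L428 (adjusted p = 5.23e-04). ISG15, the ubiquitin-like modifier, rose by 3.24 ± 0.36 there (0.00226), and neither was called in L1236 (0.168 and 0.0736). SOCS3, an inhibitor of cytokine receptors, rose by 1.65 ± 0.36 in L1236 (0.0227).

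Of 36 other antiviral effectors measured, 21 rose and 0 fell in L428 in the limma fit, at a median change of 1.67, where the median of all genes was -0.02. At an unadjusted p under 0.05, 29 were higher and 0 lower, where 10.4% of all genes were higher and 9.31% lower. In L1236, 6 rose and 1 fell, at a median of 0.37, and 4.99% of all genes were called lower. The change in L1236 was called smaller than that in L428 for 7 of the 36, where 1.46% of all genes were. PLSCR1, a phospholipid scramblase that limits virus entry, rose by 4.47 ± 0.35 in L428 (adjusted p = 3.47e-04), and its L1236 difference of 1.15 was not called (0.0779). TRIM21, a cytosolic antibody receptor, rose by 1.88 ± 0.16 (6.20e-04) and 0.94 ± 0.16 (0.00833). RTP4 rose by 3.41 ± 0.30 in L428 (6.98e-04) and differed by -0.25 in L1236 (0.571), and TRIM6 rose by 1.92 ± 0.19 in L428 (0.0014). In the lists named so far, 7 of 81 genes were not analysed here.

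The genes that flank the 10 factors were mostly not called in L428. Of the 24 flanking genes, the 2 nearest protein-coding genes with a probe set on each side, 4 rose and 0 fell there in the limma fit, or 6 and 0 at an unadjusted p under 0.05, and their median change was 0.06. Of all genes, 2.84% were called higher in L428, and 10.4% were higher at an unadjusted p under 0.05. Low signal limits the comparison, as 10 of the 24 had means below 4 in all groups. TRIM5 and TRIM6, beside TRIM22, rose by 1.66 ± 0.26 and 1.92 ± 0.19 (adjusted p = 0.0109 and 0.0014). IFITM2, beside IFITM1, rose by 2.21 ± 0.27 (0.00381), and TMPRSS2, a serine protease gene beside MX1, by 2.31 ± 0.48 (0.0412). Counting every probe set, TRIM5 had 1 of 2 called in L428 and TMPRSS2 2 of 4. TRIM5, TRIM6 and IFITM2 are antiviral genes themselves and are counted in the list above too. The others on either side of the 6 loci, namely BACE2, FAM3B, RIPK4, ALLC, SOX11, RNF144A, ID2, C11orf42, FHIP1B, GTPBP3, PLVAP, MVB12A, TMEM221, RBM48, CDK6, HEPACAM2, VPS50, PGGHG, B4GALNT4 and PKP3, were not called in L428, with estimates from -0.24 to 0.65.

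In L1236, 4 of the 24 flanking genes rose and 1 fell, where 7.41% and 4.99% of all genes did. IFITM2 rose by 2.01 ± 0.27 (adjusted p = 0.00273), RNF144A, beside RSAD2, by 1.85 ± 0.40 (0.0226), the cell-cycle kinase gene CDK6, beside SAMD9, by 1.32 ± 0.17 (0.002) and FHIP1B by 0.60 ± 0.14 (0.0343). VPS50, near SAMD9L, fell by 0.71 ± 0.11 (0.00562). Counting every probe set, VPS50 had 1 of 4 called in L1236, RNF144A 1 of 2 and CDK6 5 of 7. BACE2, counted as not called, had 1 of 3. IFITM2 was the only flanking gene called in both lines, and like IFITM3 its signal may be shared within the family.

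**Figure D4:**
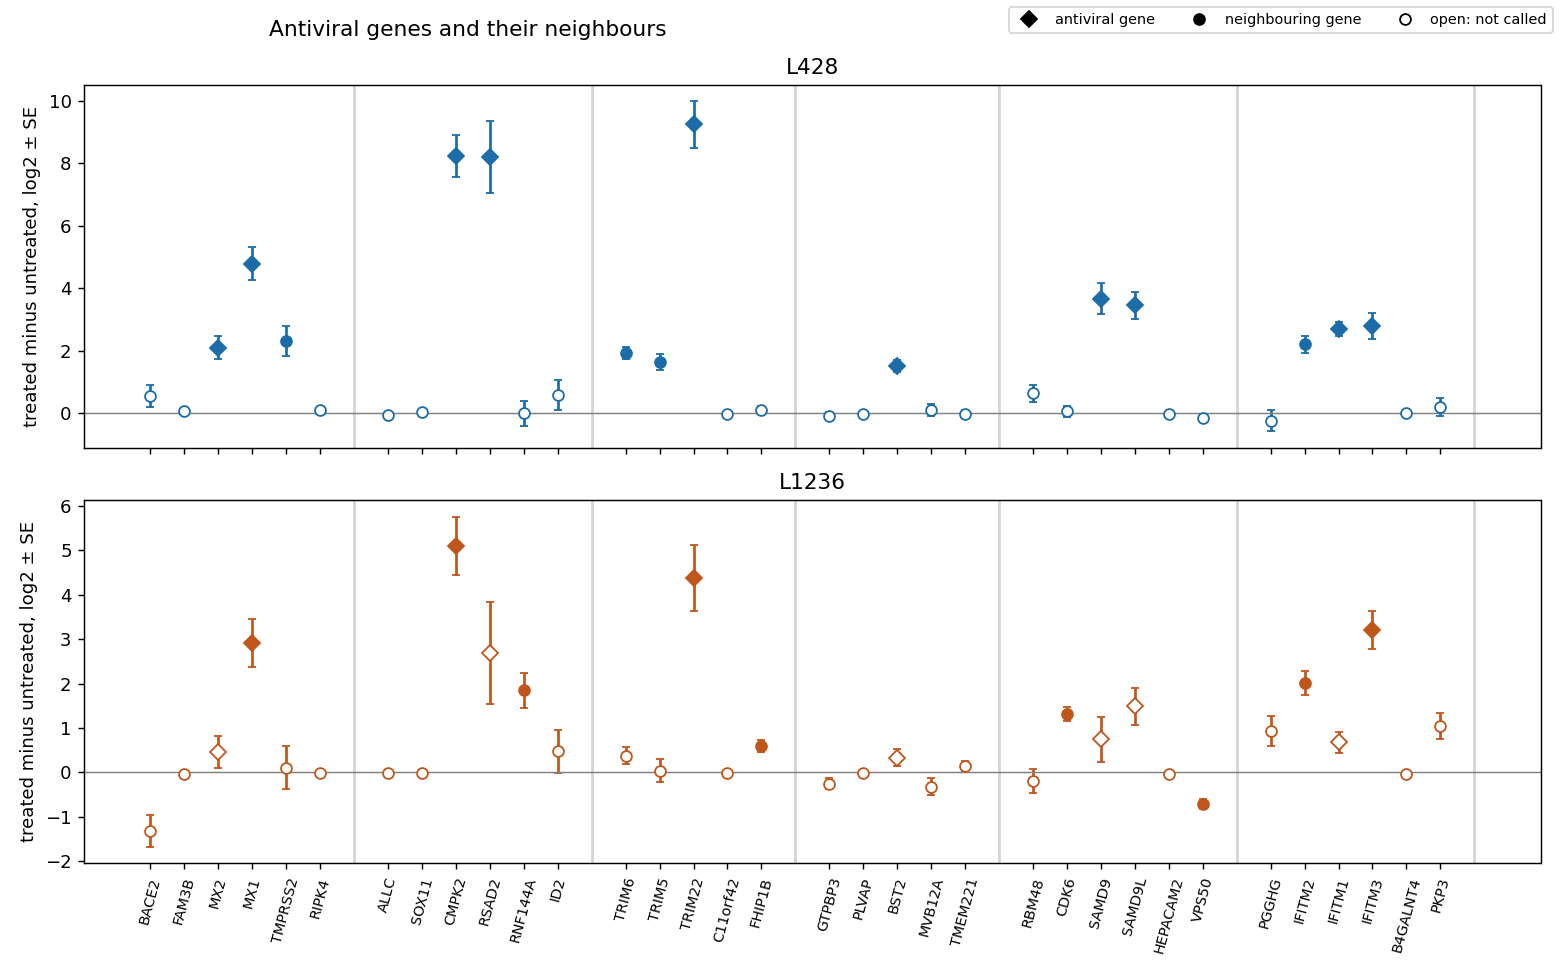
Treated minus untreated log2 signal ± SE (vertical axes) of the antiviral genes (diamonds) and their flanking genes (circles) at 6 loci, in L428 (upper panel) and L1236 (lower panel); filled symbols were called. The diamonds stand above the flanking genes at most loci in L428, and TMPRSS2, TRIM5, TRIM6 and IFITM2 are the filled circles there.

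Of the markers of other cell types, 1 rose in L428, the T-cell and NK-cell adhesion gene CD2, which went from 2.75 to 4.46 (adjusted p = 0.0109). In the limma fit 0 of 7 myeloid and plasmacytoid and 0 of 6 stromal, endothelial and epithelial markers were called there, and 0 and 1 had an unadjusted p under 0.05. The array means of the lists of 8 T-cell and NK-cell, 7 myeloid and 6 stromal markers went from 2.59 to 2.81, 2.94 to 3.11 and 4.23 to 4.33 in untreated L428 to 2.98 to 3.37, 3.05 to 3.28 and 4.25 to 4.47 in treated L428. In L1236, 2 of 8, 2 of 7 and 4 of 6 rose, among them CD8A (1.97 to 5.33), CD3D (4.13 to 6.56), the integrin gene ITGAM (3.97 to 5.60), the plasmacytoid marker CLEC4C (3.15 to 4.54), and EPCAM (2.83 to 8.20), KRT19 (2.33 to 4.36), COL1A1 (7.66 to 10.52) and VWF (2.29 to 2.82). The array means of the 3 lists in L1236 went from 2.53 to 2.63, 3.15 to 3.29 and 4.84 to 5.00 untreated to 3.42 to 3.61, 3.56 to 4.02 and 6.35 to 6.69 treated. CD14 and LYZ, defining myeloid genes, stayed at 2.26 to 2.80 in all groups. The part of these markers in the changes of the 10 genes was not tested.

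TNFRSF8 (CD30), the defining antigen of Hodgkin cells, had group means of 9.57 to 10.39, and MS4A1 (CD20), a B-cell antigen, 2.46 to 2.55. TNFRSF8 stood at 10.39 untreated and 10.17 treated in L428, and at 9.57 and 9.59 in L1236. MS4A1 read near the floor in both lines and so does not tell them apart. The chemokine gene CCL22 was low in both untreated lines, at 3.10 and 3.61, and the B-cell transcription factor gene PAX5 stood at 5.32 in untreated L428 and 11.78 in untreated L1236. Of 8 such line markers, 0 were called in L428 in the limma fit (2 at an unadjusted p under 0.05) and 3 rose in L1236, the chemokine genes CCL17 (11.90 to 14.90) and CCL22 (3.61 to 10.07) and the transcription factor gene MSC (9.02 to 9.59). Of 5 B-cell genes, 0 were called in either line by limma, and 1 in L428 and 3 in L1236 had an unadjusted p under 0.05, as 30.1% of all genes did in L1236. Of 6 housekeeping genes, B2M, which is itself interferon-responsive, rose by 0.48 ± 0.09 in L428 (adjusted p = 0.0283), and the array means of the 6 were 13.64 to 13.86 throughout.

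The levels of the 10 genes over the 12 arrays were much alike, as a description of arrays that share treatment, line and replicate 1. SP110, an interferon-induced nuclear body gene, was most like their mean, with a Pearson r of 0.99 over 12 arrays, out of 7314 genes whose group means spanned at least 1 log2 unit. ZNF595, the interferon-induced gene XAF1, CCDC144NL-AS1 and MBD3L2 followed, with r of 0.98 to 0.99. By gene, the nearest were XAF1 and MBD3L2 for MX1, ISG15 and SP110 for RSAD2, IFI27 and IRF7 for CMPK2, and IRF7 and TRIM21 for TRIM22. They were IFI44L and SP110 for BST2, IFI35 and FTCD for SAMD9, SP110 and LY6K for SAMD9L, EPSTI1 and APOL6 for IFITM1, and DPCD and ISG20 for IFITM3. MX2 stood apart: its nearest were TENT5A and UQCC4 (both 0.99), and its r with the other members went down to 0.19, with IFITM1.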

How the data were processed

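Per the submitters' processing notes, the authors made the values with RMA (robust multichip averaging). No version is given in the sources used here. The deposited table holds log2 signals for 54675 probe sets, 62 of them controls. Further scaling or centring is unknown. Array medians were 3.01 to 3.08. The identifiers are those of a 3′ array, although the design speaks of a whole-transcript one. The identifiers were used. The number of arrays limits the precision.

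Gene symbols came from the platform annotation, with 41097 probe sets given 1 gene. A model of 4 group means was fitted to 54613 probe sets on all 12 arrays with limma 3.58.1 in R 4.3.3, with empirical Bayes moderation and two-sided p-values adjusted by Benjamini-Hochberg. The script was tested on simulated data. For lists, the probe set with the highest mean stood for its gene. All members were described, and from each list up to 4 called genes with the smallest adjusted p were named. Members and lists were chosen with earlier results of these data known.

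Same-numbered arrays were checked for pairing by the correlation of their deviations from group means. Every pair was above 0.1 in L428 (0.154 to 0.26) and between the treated groups (0.223 to 0.402), but not in L1236 (0.0118 to 0.103) or between the untreated groups (0.0813 to 0.292). The highest, 0.402, was that of treated replicate 1 of each line. Differently numbered arrays were not compared, so the values cannot show whether same-numbered arrays were paired. Alternatives were single arrays left out, scaling, filtering, weights, a floor and a replicate block.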

Additional observations from a re-analysis of the deposited data

Results flagged for a closer look

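The responses of the lines differed, by the interaction contrast of the limma fit, in 4 of the 14 probe sets. The change in L1236 minus that in L428 was -4.87 for TRIM22 (adjusted p = 0.049), -3.44 for SAMD9L 235643_at (0.0256), -2.91 for SAMD9L 230036_at (0.0472) and -2.01 for IFITM1 (0.0183). Leaving out single arrays moved the adjusted p of TRIM22 between 0.00536 and 0.123, that of SAMD9L 235643_at between 0.0046 and 0.0694, that of 230036_at between 0.0213 and 0.122 and that of IFITM1 between 0.0044 and 0.0535. With replicate number as a block, all 4 missed the threshold (adjusted p = 0.0547, 0.0624, 0.0868 and 0.0511 in the same order), and with a separate block within each line they did so too (0.145, 0.144, 0.17 and 0.139). The third SAMD9L probe set, 226603_at, gave -1.97 and was not called (0.159).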

How the results depend on the processing

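A total of 24 other settings were run. No member changed direction in either treated-minus-untreated comparison or between the treated lines. Reversals were confined to 5 uncalled values: IFITM3 in the difference between the responses (-0.17 without treated L428 replicate 1, range up to 0.71, and -0.13 without all arrays numbered 1), and in the untreated lines SAMD9 219691_at (-0.00903 without untreated L1236 replicate 1, range up to 0.50), SAMD9L 230036_at (-0.0714 without the same array, range up to 0.65) and SAMD9L 226603_at (-0.0349 without all arrays numbered 1). The 14 calls in L428 became 3 when only the groups compared were fitted and 9 with the replicate block within each line, which was added after seeing the data. Of all probe sets, 0.447% and 2.2% were called in L428 in these settings, against 3.02%. The 4 in L1236 became 13 without all arrays numbered 1 and 9 with array weights. The 4 differences between the responses became 13 in both of those settings, 1 with either replicate block and 8 without dim probe sets. They became 2 with cyclic loess, quantile normalization or values below 4 set to 4. Of all probe sets tested, 6.42% were called without dim ones, 2.09% with the replicate block and 1.22% with the block within each line. With cyclic loess, quantile normalization and values below 4 set to 4 the shares were 2.32%, 2.31% and 1.55%. The 2 in the untreated lines became 8 without all arrays numbered 1 and 7 with array weights or only the groups compared. They became 4 without dim probe sets and 1 with the block within each line. Of all probe sets tested, 26.8%, 30.8%, 20%, 46.2% and 14.2% were called in these settings, in the same order, against 21.1%. The 11 in the treated lines became 6 with only the groups compared and 4 with the block within each line. There 16.1% and 12.5% of all probe sets were called, against 21%. Leaving out 1 array at a time gave 12 to 14 calls in L428, 3 to 6 in L1236, 0 to 11 for the difference between the responses, 2 to 4 in the untreated lines and 9 to 14 in the treated lines. In the untreated lines the 4 came without treated L428 replicate 1. Over these fits, 1.31% to 11.2% of all probe sets were called in L428 and 4.58% to 16% in L1236. For the difference between the responses the share was 1.34% to 6.57%. It was 17.6% to 22.7% between the untreated lines and 17.3% to 22.2% between the treated lines. Every same-numbered pair had a deviation r above 0.1 in L428 and between the treated groups. In L1236 and between the untreated groups not every pair did. Without differently numbered arrays for comparison, these values cannot show whether arrays were paired. The replicate block kept the counts at 14 in L428, 4 in L1236 and 11 in the treated lines, and gave 3 in the untreated lines. There 3.34%, 10.8%, 22.3% and 22.4% of all probe sets were called, in the same order. Array weights were estimated gene by gene and ran from 0.184 to 3.09. The background moved too: without all arrays numbered 1, 18.2% of all probe sets were called in L428 and 23.3% in L1236, and with array weights 20% and 43.8%, against 3.02% and 9.02%. For the difference between the responses the shares were 14.3% and 14.8%, against 2.57%. With median centring, 24% of all probe sets and 5 of the 14 were called in L1236. For CMPK2, values below 4 set to 4 left no difference between the untreated lines. No detection calls were used, so signal over background could not be judged for values of 2 to 3. The causes were not tested.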
